A study of Arabidopsis thaliana with 4 samples.

Results

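The outer 500 kb of 8 chromosome ends of Arabidopsis thaliana held 44992 of the 1253289 nucleosome calls listed in 4 libraries, or 3.59% of them. A call was taken where it lay at most 500000 bp below the highest position listed in any library on chromosomes 1 to 5 (the 5 bottom ends), or at a position of up to 500000 on chromosomes 1, 3 and 5 (the 3 top ends). Those highest positions were 29988303, 19341109, 23078208, 18226252 and 26533270 on chromosomes 1, 2, 3, 4 and 5. The tops of chromosomes 2 and 4, which adjoin the ribosomal DNA arrays, were not part of the rule. The ends covered 4 Mb, and the same libraries from 2 to 6 Mb inside the same ends, 32 Mb in all, served as the reference. Coordinates are those of the deposited lists, whose genome build the sources used here do not name. Compared with the annotation TAIR10.1, the last annotated gene of each chromosome ended 356 to 439 kb beyond the highest call. The lists were therefore treated as another build, no gene is named, and whether the highest calls reach the telomeres was not tested.

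The mutant plants were top1a-2 (2 libraries, titled TOP1α) and the control plants were Ler (2 libraries). All 4 libraries carry the ecotype label Landsberg erecta (Ler) and were made from whole inflorescences with unopened buds, a mix of tissues and stages. Chromatin was digested with micrococcal nuclease (MNase) and DNA of about the length of a single nucleosome was cut from a gel and sequenced. Each list gives for every call a position, a fuzziness (taken as the spread of the position, in bp), a size (taken as bp), a confidence score and votes from the forward and the reverse strand. The labels do not say whether the 2 libraries of a genotype came from separate plants, so the p-values reflect the scatter between these libraries alone, and that scatter may be technical. The genotype and the tissue could not be checked, because calls on DNA carry no marker of either.

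A telomere is the repeat array that caps a chromosome, and the subtelomere is the sequence just inside it. In Arabidopsis most telomeres pass within a short distance into sequence that carries genes, and in many organisms subtelomeres are known as places where the chromatin of the cap can spread inward. A nucleosome is a stretch of DNA wrapped around a core of histones. MNase cuts the linker DNA between nucleosomes, so protected fragments mark their places. TOP1α is a DNA topoisomerase I, an enzyme that nicks 1 strand of the DNA and lets supercoils relax, and it is known in Arabidopsis for its part in the development of shoot meristems and flowers.

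The 8 ends were covered by calls almost exactly as densely as the chromosome arms inside them. Replicates 1 and 2 of top1a-2 had 12222 and 11313 calls at the ends, against 11392 and 10065 for replicates 1 and 2 of Ler. This was 3.06 and 2.83 calls per kb in top1a-2, against 2.85 and 2.52 calls per kb in Ler. Replicate 2 had fewer calls than replicate 1 in both genotypes, and the lower top1a-2 library fell just below the higher Ler library, so the genotypes overlapped. The means were 2.94 ± 0.161 calls per kb in top1a-2, against 2.68 ± 0.235 in Ler (n = 2 each, ± SD; exact two-sided permutation p = 0.667). In the reference the 4 values were 3.04 and 2.82 calls per kb in top1a-2, against 2.80 and 2.50 in Ler. The ends were thus denser than the reference in 4 of 4 libraries, but by only 0.0224 calls per kb on average (exact sign-flip permutation p = 0.13). The 5 bottom ends alone gave -0.00604 calls per kb, the opposite sign. With 2 libraries against 2 the exact permutation test cannot go below p = 0.33 (2 of 6 assignments), and with 4 paired differences the sign-flip test cannot go below p = 0.13 (2 of 16 sign assignments). Over the 42 comparisons of this kind the lowest Benjamini-Hochberg adjusted exact permutation p was 0.56, so none passed a threshold of 0.05.

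The outermost calls lay close to the ends of the coordinates at most ends. At the top of chromosome 1 the first call stood at position 238 and 455 in the top1a-2 replicates, and at 119 and 139 in the Ler replicates. At the top of chromosome 3 the first call was at 270 and 405 in top1a-2, and at 1825 and 342 in Ler replicates 1 and 2. At the top of chromosome 5 every library began more than 1 kb in, with first calls at 1561 and 1659 in top1a-2, and at 1652 and 1494 in Ler. These 4 calls on chromosome 5 had low scores, of 0.225 or less, and a fuzziness of 19 bp or less. The chromosome 1 bottom end, whose outermost call belonged to top1a-2 replicate 1, had its last call 2088 bp further in for top1a-2 replicate 2, and 192 and 1227 bp further in for the Ler replicates. No genotype began consistently nearer to the end over the 8 ends.

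Along the outer 500 kb, in steps of 25 kb pooled over the 8 ends, neither the density nor the other measures changed steadily with distance. The mean of the 4 libraries was 2.77 calls per kb in the first 25 kb, against a median of 2.83 over the 20 steps. It was lowest from 225 to 250 kb (2.71) and highest from 100 to 125 kb (2.88). In the first step the density was 3.02 and 2.74 calls per kb in top1a-2, against 2.84 and 2.48 in Ler, so the outermost 25 kb were not depleted in any library beyond the range of its other steps. The step from 225 to 250 kb, which had the fewest calls, also had the highest mean fuzziness (39.6 bp), the highest median score (0.986) and the highest median votes per call (0.215). There, pairs of neighbours over 500 bp apart made up 5.86% and 16.2% in top1a-2, against 11.6% and 31.3% in Ler, with both replicates 2 above both replicates 1. The step from 100 to 125 kb stood at the other extreme, with the lowest median score (0.772), the lowest median votes (0.142) and the lowest mean fuzziness (38.6 bp). Steps share their libraries, and no test was made between them.

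**Figure D1:**
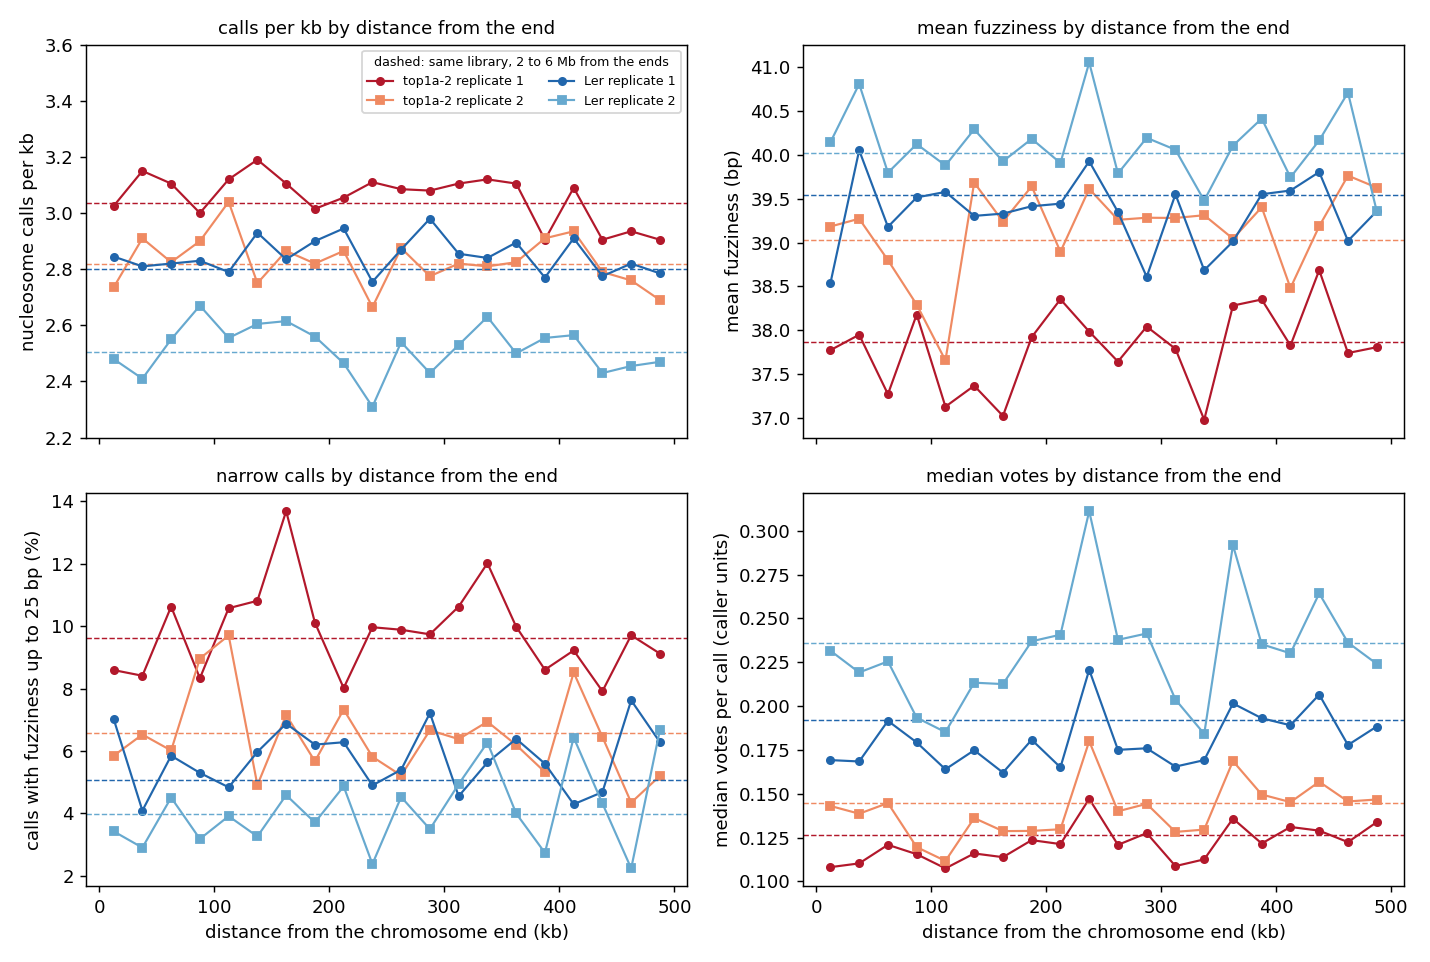
Measures in 25 kb steps from the chromosome end (horizontal axis, kb), pooled over the 8 ends, with 1 line for each library: calls per kb, mean fuzziness in bp, the percent of narrow calls (25 bp of fuzziness or less), and median votes per call. Dashed lines give the same library from 2 to 6 Mb from the ends; the lines stay near them with no steady slope, and votes are lower in both top1a-2 libraries in all 20 steps.

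The genotypes overlapped in density in 11 of the 20 steps, and top1a-2 was higher in both libraries in the other 9 steps. Across 160 steps of the same length in the reference, both top1a-2 libraries were higher in 56.2%. Mean fuzziness was lower in both top1a-2 libraries in 12 of the 20 steps, against 76.2% of the reference steps. Narrow calls were more frequent in both top1a-2 libraries in 11 steps, against 82.5% of the reference steps. The direction was therefore the same in the ends as inside them, with more steps that overlapped, and whether the ends differ from the reference in this was not tested.

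Neighbouring calls were spaced almost alike in the ends and inside them. At the ends the median distance between neighbours was 311 and 337 bp for top1a-2 and 337 and 377 bp for Ler. In the reference this distance was 313 and 338 bp for top1a-2 and 341 and 379 bp for Ler. It was shorter at the ends in 4 of 4 libraries, by 2.25 bp on average (exact sign-flip permutation p = 0.13), and 1.25 bp longer for the 5 bottom ends alone. The most frequent distance at the ends fell between 280 and 300 bp in top1a-2 replicate 1, between 300 and 320 bp in top1a-2 replicate 2, and between 340 and 360 bp in both Ler replicates. In the reference it fell between 300 and 320 bp in both top1a-2 replicates and between 320 and 340 bp in both Ler replicates. As background, the repeat length of a plant nucleosome with its linker is shorter than these distances.

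Close neighbours, under 200 bp apart, were more frequent in top1a-2. They made up 11.3% and 8.10% of pairs at the ends in top1a-2, against 7.77% and 5.17% in Ler. Both top1a-2 values lay above both Ler values, by a narrow margin between the nearest libraries. The mean difference was 3.26 percentage points (exact permutation p = 0.33). In the reference the shares were 11.3% and 8.47% in top1a-2, against 7.15% and 5.84% in Ler. Pairs more than 500 bp apart made up 7.02% and 11.1% in top1a-2, against 10.2% and 20.7% in Ler at the ends. Here the genotypes overlapped, and Ler replicate 2, the library with the fewest calls, stood far above the other 3. In 4 of 4 libraries such wide pairs were rarer at the ends than in the reference, where they made up 7.43% and 11.6% in top1a-2, against 11.3% and 21.7% in Ler. The mean difference between ends and reference was -0.754 percentage points (exact sign-flip permutation p = 0.13). It was smaller in size in both top1a-2 libraries (mean -0.487) than in both Ler libraries (mean -1.02; exact permutation p = 0.33 for the difference between genotypes).

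**Figure D2:**
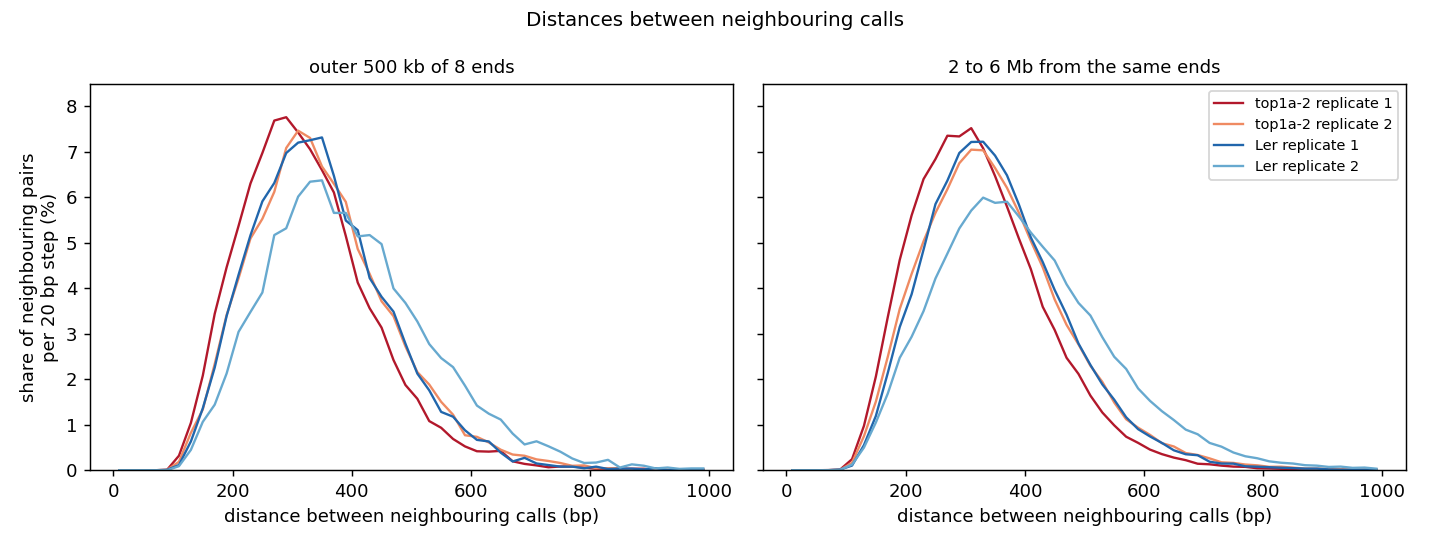
Share of neighbouring pairs of calls (percent per 20 bp step) by the distance between them (bp), for each of the 4 libraries, in the outer 500 kb of the 8 ends (left) and 2 to 6 Mb from the same ends (right). Both panels have a single broad peak, which at the ends lies between 280 and 320 bp in top1a-2 and between 340 and 360 bp in Ler, and Ler replicate 2 has the longest upper tail.

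Calls were placed with less fuzziness in top1a-2 at the ends, as they were inside them. Mean fuzziness was 37.8 and 39.1 bp in top1a-2, against 39.3 and 40.1 bp in Ler. The higher top1a-2 library and the lower Ler library were only a fraction of a bp apart, and the genotypes did not overlap. The means were 38.5 ± 0.944 bp in top1a-2, against 39.7 ± 0.539 bp in Ler (n = 2 each, ± SD; exact permutation p = 0.33). Calls with 25 bp of fuzziness or less (narrow calls) made up 9.82% and 6.49% of calls for top1a-2 and 5.76% and 4.13% for Ler, with no overlap (exact permutation p = 0.33). In the reference they made up 9.63% and 6.59% in top1a-2, against 5.07% and 3.99% in Ler. At single ends both top1a-2 libraries were less fuzzy than both Ler libraries in 7 of 8 ends, against 92.2% of 64 stretches of 500 kb in the reference. Both had more narrow calls in 7 of 8 ends, against 90.6% of those stretches. Each measure had 1 exception, in which top1a-2 replicate 2 reached the Ler range. For mean fuzziness it was the chromosome 1 bottom end, with 38.7 and 40.1 bp in top1a-2, against 39.8 and 40.6 bp in Ler, and for narrow calls the chromosome 3 bottom end, with 6.94% and 5.10% in top1a-2, against 5.29% and 4.02% in Ler.

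Scores and votes were lower in top1a-2, and over the 8 ends together they were slightly lower than in the reference. The median confidence score was 0.843 and 0.813 in top1a-2, against 0.863 and 0.876 in Ler at the ends, and 0.852 and 0.820 in top1a-2, against 0.894 and 0.884 in Ler in the reference. The score is in the caller's own units, and at the 5 bottom ends alone it was higher than in the reference in 3 of 4 libraries, by 0.00460 on average over the 4. Median votes per call, both strands added, were 0.121 and 0.140 in top1a-2, against 0.182 and 0.227 in Ler at the ends. The genotypes did not overlap in either measure (exact permutation p = 0.33 each), and votes were lower in both top1a-2 libraries at 8 of 8 ends, against 100% of the 64 reference stretches. Votes were lower at the ends in 4 of 4 libraries than in the reference, which had 0.126 and 0.145 in top1a-2, against 0.192 and 0.236 in Ler (exact sign-flip permutation p = 0.13). Votes were lowest in top1a-2 replicate 1, where calls were most numerous, and highest in Ler replicate 2, where they were fewest, and the part of call number in the difference between genotypes was not tested. Calls in which 1 strand held more than 2 times the votes of the other made up 41.2% and 28.4% in top1a-2, against 38.5% and 22.6% in Ler. That share, like the median size of 145.3 and 143.5 bp in top1a-2, against 145.5 and 143.4 bp in Ler, went with the replicate number in both genotypes.

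Very high scores were rarer at the ends. Calls with a score over 3 numbered 29 and 29 in top1a-2, against 12 and 37 in Ler, or 0.237% and 0.256% of calls for top1a-2 and 0.105% and 0.368% for Ler. In the reference they made up 0.359% and 0.449% in top1a-2, against 0.303% and 0.590% in Ler, higher than at the ends in each library. The reference held 357071 calls, against 44992 at the ends, and its highest score was 225.9. At the ends the highest score was 8.56. That call and, in 3 of 4 libraries, the call with the most votes lay at 1 site of the chromosome 2 bottom end, 398 kb from the end, at chr2:18943066-18943067. Its forward votes were 125.6 and 483.8 in the top1a-2 replicates, against 223.0 in Ler replicate 2, while its reverse votes were 0.103 or less. Its fuzziness was 5 and 1 bp in top1a-2, against 1 bp in Ler replicate 2, and its size 41.1 and 12.7 bp in top1a-2, against 53.6 bp in Ler replicate 2. Ler replicate 1 had no call there, and its nearest one was 204 bp away. No other call at the ends had more than 10 votes in any library.

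The 8 ends differed from each other by more than the mean difference between ends and reference, in density by up to 0.204 calls per kb against 0.0224. At the chromosome 1 bottom end the mean density was lowest (2.70 calls per kb), with 2.95 and 2.69 calls per kb in top1a-2, against 2.76 and 2.40 in Ler. The same end had the highest median score, 1.00 and 0.998 in top1a-2, against 1.04 and 1.06 in Ler, above every other end in every library. It also had the fewest narrow calls in every library (6.85% and 4.01% in top1a-2, against 3.99% and 2.08% in Ler). Its mean over the 4 libraries was 39.8 bp for fuzziness, 4.23% for narrow calls and 5.75% for close neighbours. The first value was above all 64 reference stretches of the same length and the other values were below all 64. In this end calls were therefore sparse, high in score and rarely close together or sharply placed.

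The top of chromosome 5 stood at the opposite side. Its mean fuzziness was the lowest over the 4 libraries, with 37.0 and 38.4 bp in top1a-2, against 38.6 and 39.5 bp in Ler, and its mean of 38.397 bp was just below all 64 reference stretches, whose lowest was 38.401 bp. Narrow calls were more frequent there than at the other ends in every library, at 12.6% and 8.48% in top1a-2, against 8.02% and 5.73% in Ler. Close neighbours were most frequent too, with a mean of 10.3%, though 1 of the 64 reference stretches was higher (10.7%). The top of chromosome 1 had the most calls on average (2.91 per kb), with 3.20 and 2.92 per kb in top1a-2, against 2.88 and 2.61 in Ler. It was 1 of 3 ends at which the genotypes did not overlap in density, against 60.9% of the reference stretches. The chromosome 5 bottom end had the lowest mean of the median score, with 0.772 and 0.720 in top1a-2, against 0.782 and 0.794 in Ler.

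**Figure D3:**
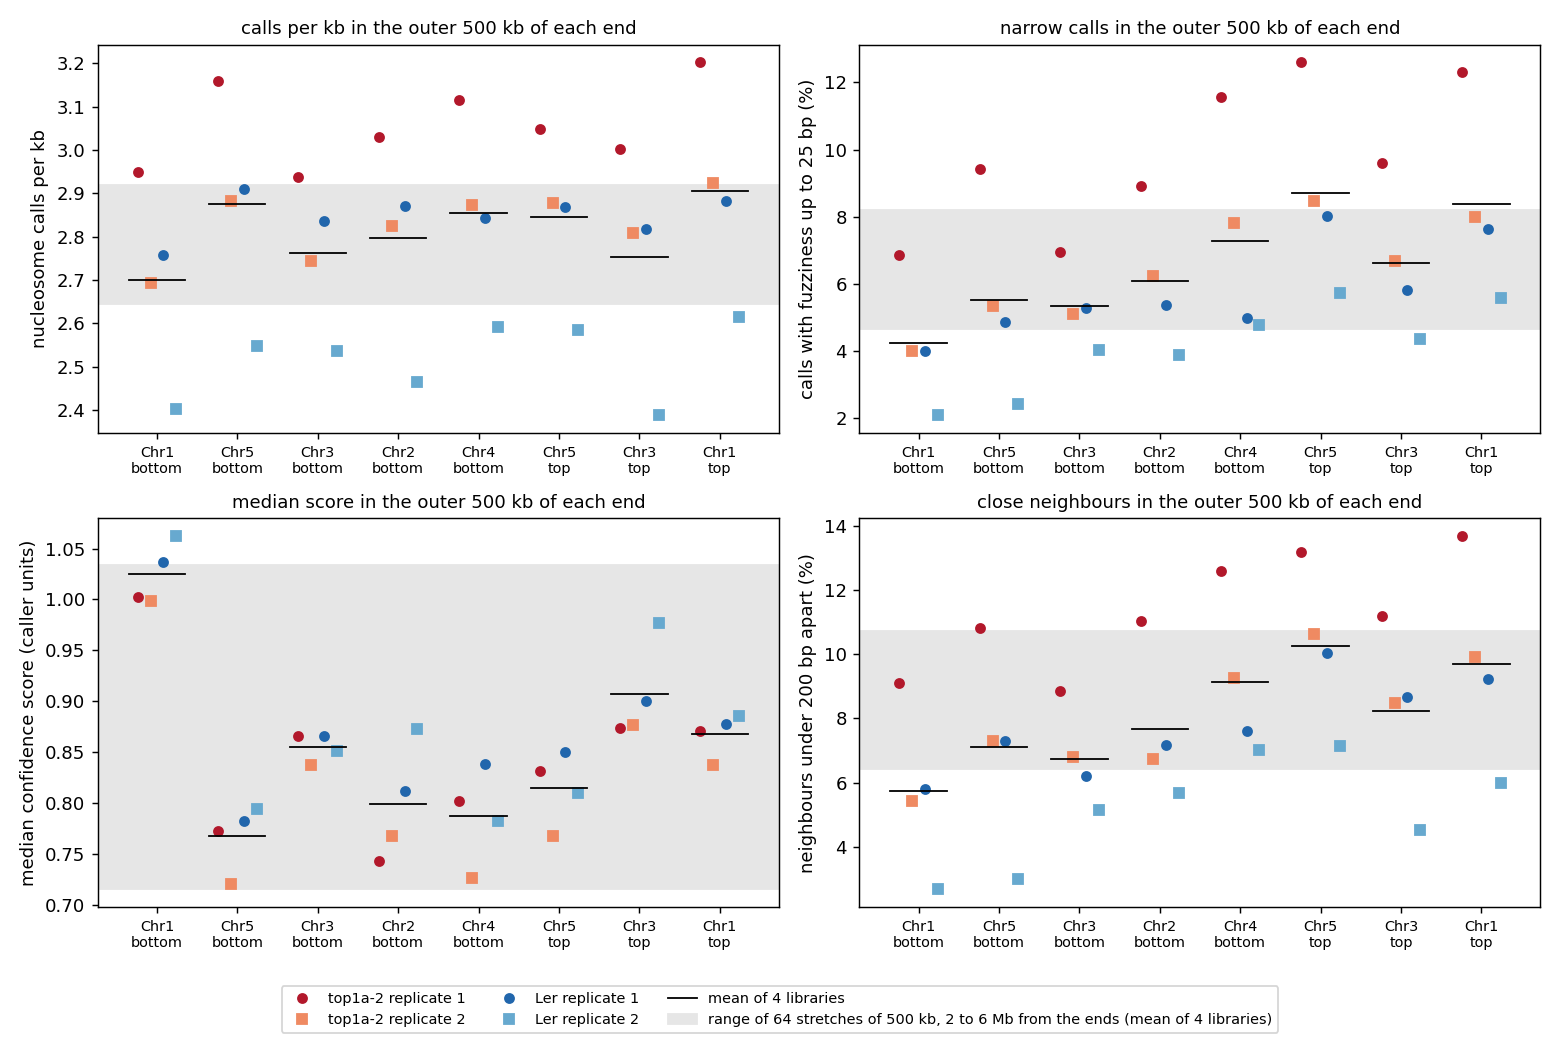
Calls per kb, narrow calls (percent), median confidence score (caller units) and close neighbours (percent) in the outer 500 kb of each of the 8 ends, with 1 point for each library and a black line for their mean. The grey band spans the means of 64 stretches of 500 kb taken 2 to 6 Mb from the ends; Chr1 bottom lies below the band in narrow calls and close neighbours, and the tops of Chr5 and Chr1 lie above it in narrow calls.

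As groups, the 5 bottom ends and the 3 top ends differed in 12 of 14 measures in the same direction in all 4 libraries. Narrow calls made up 8.78% and 5.72% at the bottom ends and 11.5% and 7.73% at the top ends in the top1a-2 replicates. In the Ler replicates they made up 4.91% and 3.46% at the bottom ends and 7.17% and 5.25% at the top ends. The mean was 5.72% at the bottom ends and 7.92% at the top ends, a difference of -2.20 percentage points ± 0.409 (SD over 4 libraries; exact sign-flip permutation p = 0.13, adjusted over 14 measures 0.146). Close neighbours averaged 7.30% at the bottom ends and 9.41% at the top ends, and mean fuzziness 39.3 bp at the bottom ends and 38.8 bp at the top ends. Single ends of the groups overlapped in these measures. The top of chromosome 3 had means of 6.62% narrow calls, 8.22% close neighbours and 39.5 bp of fuzziness. The chromosome 4 bottom end had 7.29%, 9.12% and 38.8 bp. The SD and p above are over libraries that share the same ends and do not measure the spread between ends. Wide pairs and the imbalance of votes between strands were the 2 measures whose direction varied between libraries. The order was weaker but the same in the reference for narrow calls. In top1a-2 they made up 9.35% and 6.45% inside the bottom ends and 10.1% and 6.84% inside the top ends. In Ler they made up 4.76% and 3.88% inside the bottom ends and 5.59% and 4.19% inside the top ends. Close neighbours had the opposite order in the reference in all 4 libraries. In top1a-2 they made up 11.30% and 8.53% inside the bottom ends and 11.26% and 8.38% inside the top ends. In Ler they made up 7.22% and 6.01% inside the bottom ends and 7.02% and 5.56% inside the top ends. The order of calls per kb was also opposite in all 4 libraries, and that of mean fuzziness in all but top1a-2 replicate 1.

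The spread of call sizes separated the bottom ends from the top ends. Calls under 100 bp, shorter than the DNA of a nucleosome, made up 6.28% and 5.58% of calls at the bottom ends and 1.41% and 0.883% at the top ends in the top1a-2 replicates. In the Ler replicates they made up 10.3% and 8.39% at the bottom ends and 0.700% and 0.527% at the top ends. No bottom end overlapped a top end in any library. Calls over 200 bp showed the same split, with a mean of 5.83% at the bottom ends and 0.548% at the top ends, and the SD of size was 35.1 bp at the bottom ends and 18.2 bp at the top ends. These measures of size were added after the data were seen.

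At the 8 ends and in the 6 Mb inside them, the share of short calls tended to be higher at higher coordinates. Over the 4 libraries its mean was 11.9% at the bottom of chromosome 1, whose coordinates are the highest, 8.41% at the bottom of chromosome 5, 8.11% at chromosome 3, 5.62% at chromosome 2 and 4.32% at chromosome 4. Sorted by coordinate, the 8 ends gave a Spearman correlation with the share of short calls of 0.952 to 0.976 in the 4 libraries, a description over 8 ends that share libraries and coordinates. Moving inward, the share fell at the bottom ends, though not at every step, to a mean of 5.29% at 5.5 to 6 Mb, against 7.63% in the outer 500 kb. At the top ends it was higher at 5.5 to 6 Mb (1.42%) than in the outer 500 kb (0.879%). It did not rise there at every step, with 0.797% at 3500 to 4000 kb. Coordinates go down inward from a bottom end and up inward from a top end, so both changes run with the coordinate. Within each kind of end, distance and coordinate cannot be told apart. Along the whole of chromosome 1, in steps of 5 Mb, short calls made up 1.23% and 0.947% in top1a-2, against 0.822% and 0.578% in Ler in the first step. In the last step, from 25 Mb on, they made up 7.99% and 6.89% in top1a-2, against 12.8% and 11.5% in Ler. No chromosome ran with the coordinate at every step over its whole length. On chromosome 1 the share was lower from 20 to 25 Mb than from 15 to 20 Mb in all 4 libraries. In top1a-2 replicate 2 it was highest from 10 to 15 Mb, at 7.59%. On chromosomes 3 and 5 the share was highest from 10 to 15 Mb in all 4 libraries. On chromosomes 2 and 4 it was highest in the first 5 Mb. On chromosome 4 it was 6.88% and 7.31% there in top1a-2, against 6.86% and 7.82% in Ler. From 15 Mb on it was 3.54% and 2.74% in top1a-2, against 6.36% and 5.12% in Ler. The part of the numbering of the coordinates in the sizes was not tested. Among these 8 ends, bottom and top cannot be told apart from high and low coordinates. In 4 of 4 libraries short calls were more frequent at the 8 ends together than in the reference, by 0.944 percentage points (exact sign-flip permutation p = 0.13), and they were less frequent by 0.152 percentage points at the 3 top ends alone.

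**Figure D4:**
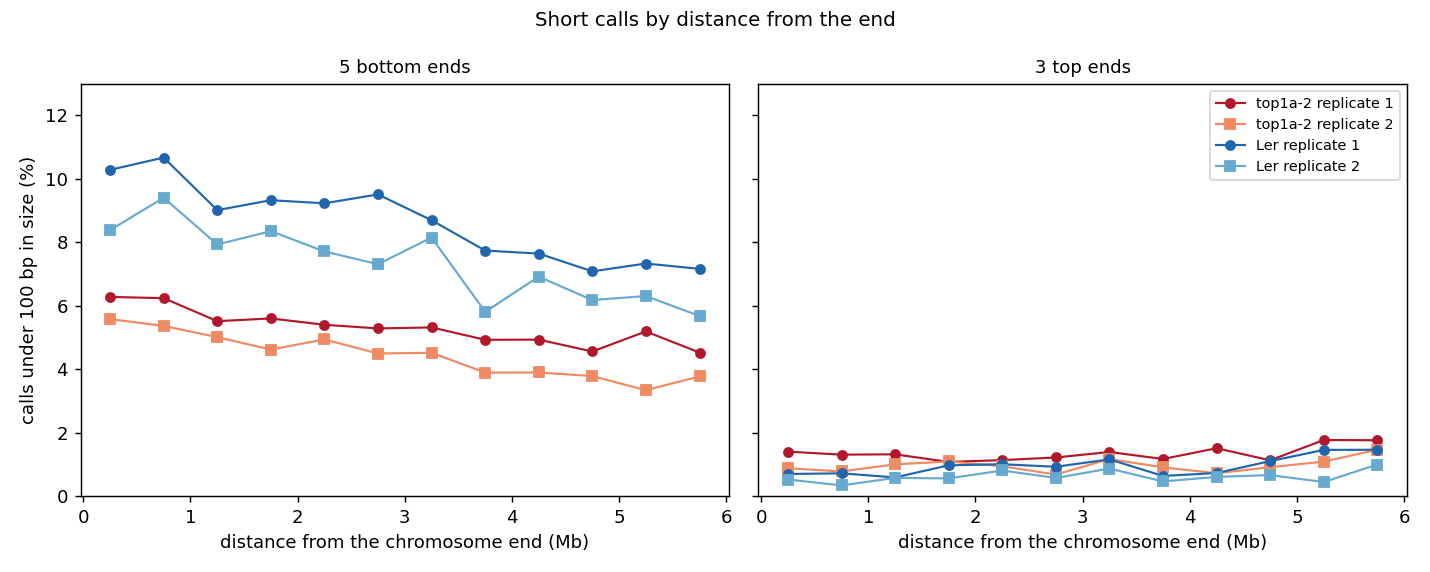
Percent of calls under 100 bp in size in 500 kb steps from the chromosome end (horizontal axis, Mb), pooled over the 5 bottom ends (left) and the 3 top ends (right), with 1 line for each library. At the bottom ends the share falls inward and is lower in both top1a-2 libraries; at the top ends it stays under 2% throughout.

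The difference between genotypes in short calls had opposite signs at the bottom and the top ends. At the bottom ends the means were 5.93% in top1a-2, against 9.34% in Ler, and at the top ends 1.14% in top1a-2, against 0.614% in Ler. The same signs were found in the reference. Inside the bottom ends the shares were 5.02% and 4.08% for top1a-2 and 8.05% and 6.75% for Ler, and inside the top ends 1.39% and 0.990% for top1a-2 and 1.06% and 0.681% for Ler, where the genotypes overlapped. All 5 bottom ends were lower in both top1a-2 libraries, against 92.5% of the 40 reference stretches inside bottom ends. Of the 3 top ends, 2 were higher in both top1a-2 libraries, against 37.5% of the 24 reference stretches inside top ends, and at the third the genotypes overlapped. The difference between the 2 contrasts was -3.94 percentage points (exact permutation p = 0.33, the smallest the design allows).

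Stretches of more than 1 kb between neighbouring calls were few, and some of them recurred at the same place in every library. The 8 ends had 14 and 19 of them in top1a-2, against 18 and 23 in Ler, or 3.5 and 4.75 per Mb in top1a-2, against 4.5 and 5.75 per Mb in Ler. The reference had 5.66 and 4.81 per Mb in top1a-2, against 4.47 and 7.25 per Mb in Ler. Merged over libraries, these gaps formed 30 clusters, of which 9 were present in all 4 libraries, 1 in 3, 3 in 2 and 17 in 1. None was found in both top1a-2 libraries alone, and 1 was found in both Ler libraries alone. The top of chromosome 5 held 4 of the 9 shared gaps, and its mean of 15.5 long gaps per Mb was the highest of the 8 ends, within the range of the reference stretches (0 to 22 per Mb).

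Merged over the libraries, the longest shared gap was chr5:49209-53351, 49.2 kb from the top end. The longest distance between neighbours in it was 2099 and 2163 bp in top1a-2, against 2086 and 4133 bp in Ler, with 2 and 3 calls inside it in top1a-2, and 3 and 1 in Ler. The gap chr3:22753856-22757041 lay 321 kb from the bottom end. Its longest distance was 2714 and 2761 bp in top1a-2, against 2708 and 3144 bp in Ler. In every library but Ler replicate 2 this was longer than in the chromosome 5 gap. At chr4:17892816-17894498, 332 kb from the bottom end, the 4 libraries agreed to within 75 bp, with 1667 and 1682 bp in top1a-2, against 1607 and 1628 bp in Ler. Both top1a-2 values lay above both Ler values there, and the reverse held at chr5:481054-482385, with 1169 and 1180 bp in top1a-2, against 1269 and 1325 bp in Ler. In all other shared gaps the genotypes overlapped. Whether the shared gaps lack nucleosomes or only reads was not tested.

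**Figure D5:**
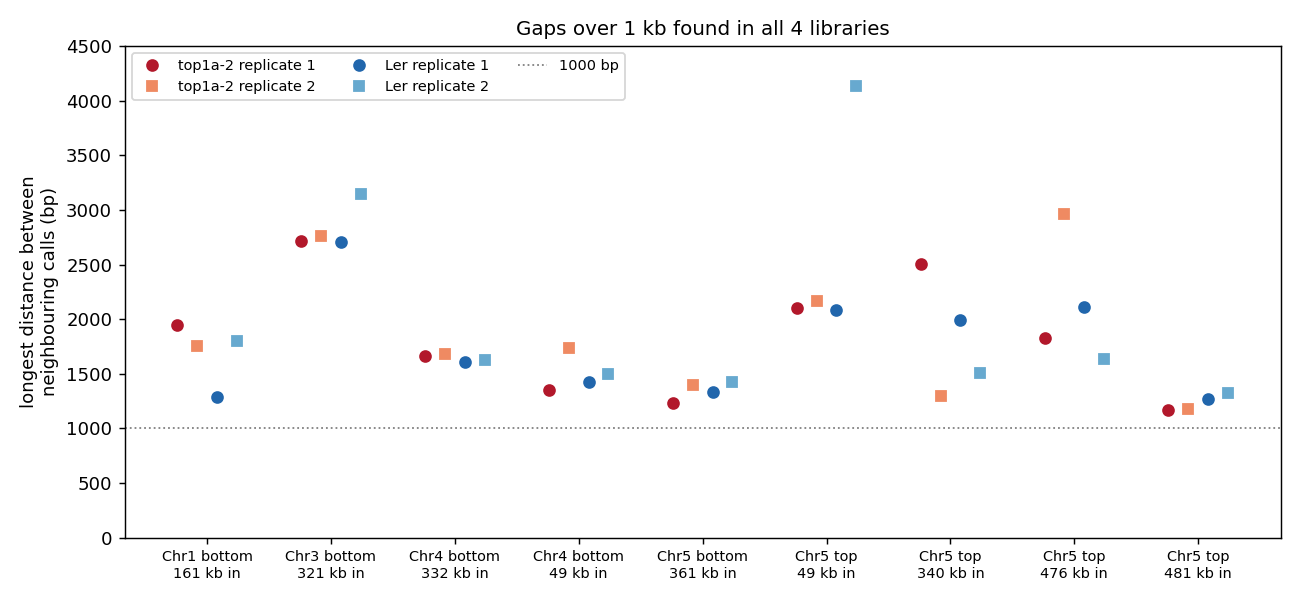
Longest distance between neighbouring calls (bp) in each of the 9 gaps over 1 kb that all 4 libraries shared, named by end and by distance from it in kb, with 1 point for each library. All points lie above the dotted line at 1000 bp by the choice of these gaps, and the genotypes overlap in 7 of the 9 gaps.

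Positions themselves agreed between libraries to a similar degree at the ends and inside them. At the ends 22.3% of the calls of a top1a-2 replicate had a partner in the other top1a-2 replicate at most 20 bp away, as the mean of both directions, and for the Ler pair the share was 20.0%. Pairs of a top1a-2 and a Ler library of the same replicate number gave 23.8% and 22.3%, and the other pairs 21.0% each. Agreement within a genotype was therefore within or below the range between genotypes. In the reference the top1a-2 pair gave 23.1% and the Ler pair 20.3%. The bases within 20 bp of a call made up 12.5% and 11.6% of the ends in top1a-2, against 11.7% and 10.3% in Ler, which is the share that a random position would meet. Calls with a partner in all 3 other libraries numbered 299 and 313 in top1a-2, against 291 and 287 in Ler, or 2.45% and 2.77% in top1a-2, against 2.55% and 2.85% in Ler.

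Single windows of 25 kb were tiled inward from every chromosome end and fitted with limma on all windows of the genome. With genotype as the only term, they gave no call between the genotypes at the ends. Adding the replicate number as a term let some windows of the ends pass in fuzziness and summed score, as given in the closing section. The counts that follow are for genotype alone. For the number of calls, divided by the library mean, 0 of 4672 windows passed an adjusted p of 0.05 (0%), and 264 (5.65%) had an unadjusted limma p under 0.05. Of the 160 windows of the ends 8 did, 7 of them higher in top1a-2. For mean fuzziness 1 of 4622 windows passed (0.0216%), and none of the 160. At an unadjusted limma p under 0.05 stood 437 windows (9.45%), among them 15 of the 160, all lower in top1a-2. For the summed score, divided by the library mean, 0 of 4672 windows passed (0%), and 602 (12.9%) had an unadjusted p under 0.05, among them 15 of the 160, all lower in top1a-2.

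Counting only windows in which the libraries of the genotypes did not overlap, more calls as deposited were found for top1a-2 in 56 of the 160, against 32.6% of all windows, and 1 had fewer, against 3.83%. Once divided by the library mean, 34 windows had more calls in top1a-2, against 16.9% of all windows, and 14 had fewer, against 17.7%. Fuzziness was lower in top1a-2 in 68 windows, against 41.6%, and higher in 2, against 3.01%. The summed score was lower in 62 windows, against 37.1%, and higher in 2, against 2.55%. The share of the ends was thus near that of the genome in fuzziness and score. For calls divided by the library mean, 21.2% of the windows of the ends were higher in top1a-2 and 8.75% were lower.

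The smallest p among the windows of the ends belonged to the 1 window with fewer calls as deposited in both top1a-2 libraries. It was chr3:22628209-22653208, 425 to 450 kb from the bottom end, with 59 and 55 calls for top1a-2 and 78 and 69 for Ler, a log2 change of -0.43 ± 0.11 (SE) on the log2(level + 0.104) scale that did not pass (limma adjusted p = 0.734). Calls there were also fuzzier, with means of 41.3 and 39.7 bp in top1a-2, against 38.3 and 38.9 bp in Ler, which ran counter to most windows (limma adjusted p = 0.591). In the other direction stood chr3:400001-425000, 400 to 425 kb from the top end, with 84 and 76 calls for top1a-2 and 62 and 60 for Ler (log2 change 0.25, limma adjusted p = 0.833). This window also had the smallest p for fuzziness at the ends, with 35.9 and 38.0 bp in top1a-2, against 41.9 and 41.7 bp in Ler, a difference of -4.86 ± 1.36 bp (SE; limma adjusted p = 0.505). In it, top1a-2 had more calls that were less fuzzy, without overlap of the libraries.

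The other windows named by the same rule had values of the same order. Higher call numbers in top1a-2 were listed for chr1:75001-100000, with 73 and 85 calls for top1a-2 and 66 and 51 for Ler, and for chr5:26408271-26433270, with 83 and 78 in top1a-2, against 65 and 59 in Ler (limma adjusted p = 0.833 each). Lower ones were listed for chr1:29888304-29913303, with 78 and 54 calls for top1a-2 and 70 and 73 for Ler (limma adjusted p = 0.833), and for chr5:25001-50000, with 76 and 72 in top1a-2, against 80 and 75 in Ler (limma adjusted p = 0.837). The genotypes overlapped in both of the lower ones. For the summed score the smallest p belonged to chr2:19266110-19291109, 50 to 75 kb from the bottom end, where the scores added up to 61.8 and 59.4 in top1a-2, against 65.0 and 62.7 in Ler (log2 change -0.17 after division by the library mean, limma adjusted p = 0.293). The outermost 25 kb of the same end followed, with 67.9 and 66.6 in top1a-2, against 71.6 and 69.0 in Ler (limma adjusted p = 0.293). The third was chr2:19091110-19116109, with 63.4 and 60.6 in top1a-2, against 65.8 and 62.3 in Ler (limma adjusted p = 0.293).

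For fuzziness 2 windows near the top of chromosome 1 followed the one on chromosome 3. In chr1:150001-175000 it was 35.3 and 37.4 bp in top1a-2, against 39.8 and 40.7 bp in Ler, and in chr1:25001-50000 it was 34.1 and 38.5 bp in top1a-2, against 41.0 and 40.1 bp in Ler (limma adjusted p = 0.505 each). Neither overlapped between the genotypes. On the fuzzier side, with overlap between the genotypes, chr1:450001-475000 (36.5 and 41.2 bp in top1a-2, against 34.7 and 39.2 bp in Ler) and chr1:275001-300000 (40.1 and 43.1 bp in top1a-2, against 38.4 and 41.4 bp in Ler) had limma adjusted p of 0.669 and 0.686. Higher summed scores in top1a-2 were listed for chr1:29613304-29638303, chr1:400001-425000 and chr1:350001-375000, with log2 changes of 0.05, 0.05 and 0.04 (limma adjusted p from 0.768 to 0.836). None of these differences passed the threshold.

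In the outermost 25 kb window the genotypes overlapped in call number at 7 of the 8 ends. Over all windows of the genome, 32.6% had more calls as deposited in top1a-2 without overlap, and 3.83% had fewer. At the top of chromosome 1 it held 84 and 78 calls for top1a-2 and 69 and 66 for Ler, with no overlap. Its mean fuzziness was 36.1 and 36.5 bp in top1a-2, against 39.1 and 40.2 bp in Ler (difference -3.32 ± 1.34 bp, SE; limma adjusted p = 0.505). The outermost windows of the bottoms of chromosomes 1, 2, 3, 4 and 5 had 75 and 65, 63 and 65, 70 and 65, 74 and 86, and 85 and 64 calls in top1a-2. In Ler the same windows had 72 and 57, 66 and 55, 65 and 66, 75 and 67, and 84 and 62 calls. The tops of chromosomes 3 and 5 held 81 and 66 and 73 and 58 calls for top1a-2, and 67 and 58 and 71 and 65 calls for Ler. At these other 7 outermost windows the call numbers of the genotypes overlapped, and the limma adjusted p for call number lay between 0.888 and 0.990 over all 8.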

How the data were processed

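Nucleosome calls from MNase sequencing of 4 libraries were used, 2 of top1a-2 and 2 of Ler, grouped by sample titles and the series' design text. Per the file headers, the deposited lists give a position, fuzziness, size, confidence score and votes for each call; all were treated as score columns made by the authors, 1 list for each library. The aligner, the caller, its thresholds, the build and the scaling of score and votes are not given in the sources at hand here. Read depth is unknown, so no counting interval can be given.

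The ends, measures and lists were chosen with earlier results of these data known. Calls of the 8 ends were pooled in each library (Python 3.11.15). Genotypes were compared by the exact two-sided permutation test over 6 assignments, and ends against the reference by the exact sign-flip test over 16. Short calls, long calls, size SD and long gaps were measures added after the data were seen. Windows of 25 kb were fitted with limma 3.58.1 (R 4.3.3, variance trend, no covariate) on log2(level + pseudocount), with a pseudocount of 0.104 for calls and 0.0943 for the summed score, or on mean fuzziness in windows with at least 10 calls in each library. Windows empty in at least 3 libraries were dropped. Benjamini-Hochberg adjustment covered all windows of the genome, and the script was tested on simulated data. Named windows were the outermost of each end and those past the threshold or, where none passed, the 3 at the ends with the smallest p in each direction. For each measure the highest and lowest ends were named. The site with the most votes and the shared gaps were chosen after their values were seen. The alternatives are given in the closing section.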

Additional observations from a re-analysis of the deposited data

Results flagged for a closer look

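The share of calls under 100 bp was flagged because its difference between genotypes took opposite signs at the 2 kinds of end. With the ends of each kind pooled, the libraries of the genotypes did not overlap. At the top of chromosome 3 alone they did. The signs were the same 2 to 6 Mb inside the ends, with 5.02% and 4.08% in top1a-2 and 8.05% and 6.75% in Ler inside the bottom ends, and 1.39% and 0.990% in top1a-2 and 1.06% and 0.681% in Ler inside the top ends. At the 3 top ends top1a-2 minus Ler was 0.53 percentage points, with 1.41% and 0.883% in top1a-2 and 0.700% and 0.527% in Ler. At the 5 bottom ends it was -3.41 percentage points, with 6.28% and 5.58% in top1a-2 and 10.3% and 8.39% in Ler. The difference between the contrasts was -3.94 percentage points (exact two-sided permutation p = 0.33, the smallest that 2 libraries against 2 allow). The share itself tended to be higher at higher chromosome coordinates at the 8 ends and in the 6 Mb inside them. Over whole chromosomes, in steps of 5 Mb, it did not rise throughout on any of them. The part of the coordinate in this difference was not tested.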

How the results depend on the processing

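Of 700 alternatives run for single measures, 639 kept the direction and 61 turned it. Some of those that kept it could not have turned it. The replicate block leaves the mean difference unchanged, and a changed reference leaves the genotype difference at the ends unchanged. The single measures allow no p under 0.13, so only directions were compared, and the cause of a turn was not tested. The genotype difference at the ends kept its direction in all alternatives run for 8 of 14 measures, the difference from the reference for 3 of 14, and the difference of that difference between genotypes for 2 of 14. Unknown read depth limits every value. The settings with only the 3 top ends, with only the 5 bottom ends, without the top of chromosome 5 and without the bottom of chromosome 1 were chosen after seeing the data.

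For the ends minus the reference, close neighbours (-0.0902) turned to 0.191 with 1 Mb from the end, 0.0258 with 250 kb, 0.137 with the reference at 2 to 4 Mb, 1.35 at the 3 top ends and 0.274 without the bottom of chromosome 1. Mean fuzziness (-0.0227 bp) turned to 0.202 at the 5 bottom ends, 0.0516 with equally many top-scoring calls, 0.0709 without scores below the lower quartile and 0.0776 without the top of chromosome 5. Narrow calls (0.228) turned to -0.389, -0.0448 and -0.0200 at the bottom ends, without the lower quartile and without the top of chromosome 5. Median size (0.394 bp) turned to -0.0404 with 1 Mb and -0.0176 with 250 kb. At the bottom ends calls per kb turned to -0.00604, the neighbour distance to 1.25 bp and the median score to 0.00460. At the top ends short calls turned to -0.152, long calls to -0.164 and size SD to -1.55 bp. Long gaps per Mb (-0.922) turned to 0.883 with calls of 50 to 250 bp and 0.570 without the lower quartile.

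For top1a-2 minus Ler at the ends, median size (-0.0693 bp) turned to 0.047 with 250 kb, 0.119 at the top ends, 0.0231 with equal weight of the ends and 0.113 with an equal number of calls. At the top ends short calls turned to 0.530, long calls to 0.299 and size SD to 1.37 bp. Long gaps per Mb turned to 10.2 with an equal number of calls, a setting that trimmed every library but Ler replicate 2.

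The difference of the 2 contrasts turned most often. With 250 kb it was 0.00430 for calls per kb, 0.533 for close neighbours, -0.134 bp for fuzziness and 0.0844 for narrow calls. At the top ends it was 0.0629 for close neighbours, -0.0602 bp for fuzziness, 0.213 for short calls, 0.210 for long calls and 0.775 bp for size SD. At the bottom ends median size gave -0.396 bp, and without the top of chromosome 5 the neighbour distance gave -0.5 bp. Without the lower quartile calls per kb gave 0.00642 and long gaps per Mb 0.391.

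Without 1 library at a time, top1a-2 minus Ler at the ends ranged from 0.0939 to 0.426 calls per kb (lowest without Ler replicate 2), 1.63 to 4.88 points for close neighbours, -1.92 to -0.583 bp for fuzziness and 1.54 to 4.87 points for narrow calls (the last 3 smallest in size without top1a-2 replicate 1). Ranges that crossed 0 were -0.326 to 0.103 for close neighbours and -0.0651 to 0.0366 bp for fuzziness at the ends minus the reference. For top1a-2 minus Ler they were -1.12 to 0.982 bp for median size and -3.74 to 12.2 for vote imbalance. For the difference of the contrasts they were -0.0312 to 0.00225 for calls per kb, -0.769 to 0.518 for close neighbours, -1.42 to 0.672 for long gaps per Mb, -0.0632 to 0.216 bp for fuzziness, -0.000308 to 0.0228 for median score, -0.0112 to 0.131 bp for median size and -0.177 to 0.717 for vote imbalance.

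Windows of the genome that passed limma's test without 1 library numbered 0 to 2 in calls, 5 to 86 in fuzziness (86 without top1a-2 replicate 2, 17 without top1a-2 replicate 1, 13 without Ler replicate 1, 5 without Ler replicate 2) and 17 to 87 in summed score (87 without top1a-2 replicate 1, 69 without top1a-2 replicate 2, 17 without Ler replicate 1, 25 without Ler replicate 2). In these fits a genotype left with 1 library is given the spread of the other. At the ends these were 0 to 4 in fuzziness and 0 to 1 in summed score, the highest without top1a-2 replicate 2. In calls, against 0, 1 window passed with no filter. In fuzziness, against 1, windows of 10 kb gave 0, windows of 50 kb 0, at least 20 calls 0, no variance trend 2 and no lower quartile 2. In summed score, against 0, values as deposited gave 25, the library median 1, windows of 10 kb 1 and no lower quartile 1.

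Under a replicate block, 4 windows passed in calls, 36 in fuzziness and 835 in summed score, of which the ends held 0, 1 and 18. By the labels, libraries of the same number share only that number, and their deviations correlated across windows with r = 0.107, 0.0457 and 0.606 in calls, fuzziness and summed score.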
